A study of Mus musculus with 8 samples.

Results

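MHC class II molecules and the machinery that assembles them are represented here by 8 genes: the chain genes H2-Aa, H2-Ab1 and H2-Eb1, the invariant chain Cd74, the peptide-exchange genes H2-DMa, H2-DMb1 and H2-DMb2, and the transactivator Ciita. They were chosen by name, as the probes whose RefSeq accession maps to these symbols, and 9 of 55681 probes did so, with 2 for H2-Ab1 and 1 for every other gene. Of the 21368 gene symbols on the array, 15105 were measured among 25398 features that passed a brightness filter. A gene counted as measured when at least 4 arrays of 8 put it well above background, which held for 7 of the 8. H2-DMb2 reached that level on none.

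RNA came from Lgr5-high intestinal stem cells, sorted by their reporter, of mice of 2 genotypes with 4 arrays each. Both genotypes were Irf2 fl/fl, with both copies of the interferon regulatory factor gene Irf2 flanked by recombination sites, and both carried the Lgr5-EGFP-Ires-CreERT2 allele, which puts a fluorescent reporter and a tamoxifen-dependent recombinase at the stem cell gene Lgr5. The group labelled Irf2_AhcKO also carried Ah-Cre, a recombinase driven by a promoter that β-naphthoflavone induces, and the group labelled control did not. Mice of both groups were studied 1 month after 5 days of β-naphthoflavone. Ah-Cre is not restricted to stem cells, and no age is stated in the sources used here. In the names of the scanner data, Ah-Cre is mentioned for control replicates 3 and 4 too, which the labels do not settle. Replicates 1 and 2 of both groups were on slide 1 and replicates 3 and 4 on slide 2.

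On each array between 61.4% and 69.8% of spots were well above background, and none was saturated. The targeted gene was read first. Irf2 signal was 0.99, 0.55, 0.37 and 0.64 on control arrays 1 to 4 and 1.12, 1.10, 0.70 and 0.73 on Irf2_AhcKO arrays 1 to 4, on a log2 scale relative to each array's 75th percentile. Irf2 signal in the group labelled Irf2_AhcKO was thus not below that of controls (log2 difference 0.27, SE 0.12, limma's adjusted p = 0.429). No source used here says whether this probe lies in the deleted part, so every direction below is between arrays as labelled. Control replicate 4 stood apart with an enterocyte transcript, Sis, at 10.42, against -1.74 to -0.79 on the other control arrays. Replicate 4 of each group also differed from the other 6 arrays in sex-linked transcripts, with Xist at 5.83 and 5.89 and Ddx3y at -6.35 and -6.46.

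Class II molecules are pairs of an α and a β chain that display peptides from the endosomal pathway to CD4 T cells. The invariant chain, Cd74, occupies the groove during assembly, and the DM heterodimer exchanges its remnant for peptide. Ciita is the master regulator of these genes: it does not bind DNA itself but docks on a complex of RFX, CREB and NF-Y proteins that sits on conserved X and Y boxes of class II promoters. Professional antigen-presenting cells make class II constitutively, and other cells, among them intestinal epithelium and its stem cells, can make it, chiefly under interferon gamma.

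The promoter letters are shown because the genes are known for a shared promoter layout. RefSeq windows (GRCm38.p6, from 250 bases before to 50 after each start) were at hand for 5 of the 8 genes, in 6 windows, all on chromosome 17. Searched on both strands were CTNGNAAC, the core of the RFX-bound X box, and TGATTGG, the core of the NF-Y-bound Y box. Stretches of 62 bases upstream of the start are given 5′ to 3′ on the strand of the gene, with matches to those letters in capitals. They lie at chr17:34287857-34287918 (minus strand) for H2-Aa, chr17:34305761-34305822 (plus) for H2-Eb1, chr17:34153083-34153144 (plus) for H2-DMb1 and chr17:34145112-34145173 (plus) for H2-DMb2.
H2-Aa: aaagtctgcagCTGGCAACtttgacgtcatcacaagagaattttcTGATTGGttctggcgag
H2-Eb1: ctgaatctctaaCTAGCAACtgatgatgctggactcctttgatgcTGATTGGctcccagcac
H2-DMb1: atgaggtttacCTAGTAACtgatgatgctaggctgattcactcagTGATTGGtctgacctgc
H2-DMb2: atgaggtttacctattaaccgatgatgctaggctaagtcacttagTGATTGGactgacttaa

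In H2-Aa, H2-Eb1 and H2-DMb1, CTNGNAAC was followed by TGATTGG on the same strand, with 26, 25 and 26 bases between them. The H2-DMb2 stretch, from the near-copy of H2-DMb1, held TGATTGG but not CTNGNAAC, and the 2 windows of H2-DMa held neither. Among all 32851 RefSeq promoter windows of this length, 13.15% held CTNGNAAC, 7.817% held TGATTGG, and 23 windows (0.07001%) held the ordered pair, without overlap, 15 to 35 bases apart. H2-Ob, a β chain of the DM inhibitor and no member of the 8, was among those 23. A pair of GAAA with 2 bases between, a core of interferon-stimulated response elements, was in none of the 6 windows and in 3.443% of all. A match is a description of letters, and its absence says only that they are not in that window.

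All 7 measured class II and Ciita transcripts had higher mean signal in the arrays labelled Irf2_AhcKO, by 1.17-fold for Ciita and by 1.78-fold to 2.68-fold for the others, and no difference passed the threshold over all features. Differences are on the log2 scale, from limma with the slide as a term, with p-values adjusted over all 25398 features by Benjamini-Hochberg and a threshold of 0.05. Of all features, 0.0984% passed. Bulk signal cannot tell more expressing cells apart from more RNA per cell.

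H2-Aa encodes the α chain of the I-A molecule. Its signal was -2.10, -1.66, -0.60 and -0.03 on control arrays 1 to 4 and -0.20, 0.64, 0.0032 and 0.86 on Irf2_AhcKO arrays 1 to 4. On both slides the Irf2_AhcKO arrays were above the control arrays, yet Irf2_AhcKO array 1 lay below control array 4 of the other slide, so the groups overlapped. The means were -1.10 ± 0.95 and 0.33 ± 0.50 (SD, n = 4 each), a log2 difference of 1.42 (SE 0.37, 95% interval 0.55 to 2.29 before adjustment, limma's adjusted p = 0.281).

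H2-Ab1 encodes the β chain that pairs with H2-Aa. It read 1.68, 2.17, 2.01 and 2.81 on the control arrays and 3.22, 3.99, 2.71 and 3.46 on the Irf2_AhcKO arrays. Only control array 4 and Irf2_AhcKO array 3 crossed. The means were 2.17 ± 0.47 and 3.35 ± 0.53 (SD, n = 4 each), with a log2 difference of 1.18 (SE 0.33, limma's adjusted p = 0.295). The second H2-Ab1 probe gave 1.11, 1.41, 1.20 and 2.05 in controls and 2.56, 3.19, 1.97 and 2.72 in Irf2_AhcKO. Its log2 difference was 1.17 (SE 0.31), and the same pair of arrays crossed.

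H2-Eb1, the β chain of the I-E molecule, read -1.33, -1.26, -1.40 and -0.52 on control arrays and -0.37, 0.28, -0.71 and -0.39 on Irf2_AhcKO arrays. Here 3 control arrays lay together and low, while control array 4 stood among the Irf2_AhcKO values. The means were -1.13 ± 0.41 and -0.30 ± 0.41 (SD, n = 4 each), and the log2 difference was 0.83 (SE 0.27, limma's adjusted p = 0.349). With normexp background correction it was 0.48.

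Cd74 encodes the invariant chain that escorts new class II molecules to the endosome. It read 1.57, 1.76, 1.47 and 2.45 on control arrays and 2.86, 3.65, 2.16 and 2.68 on Irf2_AhcKO arrays. Control array 4 was again the high control and lay above Irf2_AhcKO array 3. From means of 1.81 ± 0.44 and 2.84 ± 0.62 (SD, n = 4 each), the log2 difference was 1.03 (SE 0.34, limma's adjusted p = 0.352).

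H2-DMa and H2-DMb1 encode the chains of the heterodimer that edits the bound peptide. H2-DMa read -0.95, -0.63, -1.13 and -0.18 on control arrays and 0.22, 0.71, -0.19 and 0.35 on Irf2_AhcKO arrays. Its lowest Irf2_AhcKO value and its highest control value were almost level. The log2 difference was 1.00 (SE 0.26, limma's adjusted p = 0.281), between means of -0.72 ± 0.41 and 0.27 ± 0.37 (SD, n = 4 each).

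H2-DMb1 read -0.86, -0.01, -0.92 and 0.08 on control arrays and 0.98, 1.73, -0.22 and 0.62 on Irf2_AhcKO arrays. Irf2_AhcKO array 3 lay below control arrays 2 and 4, so the overlap was wider than for H2-DMa. The means were -0.43 ± 0.54 and 0.78 ± 0.81 (SD, n = 4 each), with a log2 difference of 1.21 (SE 0.40, limma's adjusted p = 0.35). The probe of the near-copy H2-DMb2 read -6.83 to -5.56 and was not well above background on any of the 8 arrays, so no fold is given. Whether either probe reads the other gene was not tested.

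Ciita read 1.52, 1.66, 0.17 and 0.30 on control arrays and 1.86, 1.92, 0.25 and 0.51 on Irf2_AhcKO arrays. The arrays fell into a high set on slide 1 and a low set on slide 2, and within each set the Irf2_AhcKO arrays were higher except that control array 4 lay just above Irf2_AhcKO array 3. The group means were 0.91 ± 0.79 and 1.13 ± 0.88 (SD, n = 4 each), an SD that holds the step between slides. With the slide as a term the log2 difference was 0.22 (SE 0.09, 95% interval 0.0039 to 0.44 before adjustment, limma's adjusted p = 0.423).

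**Figure D1:**
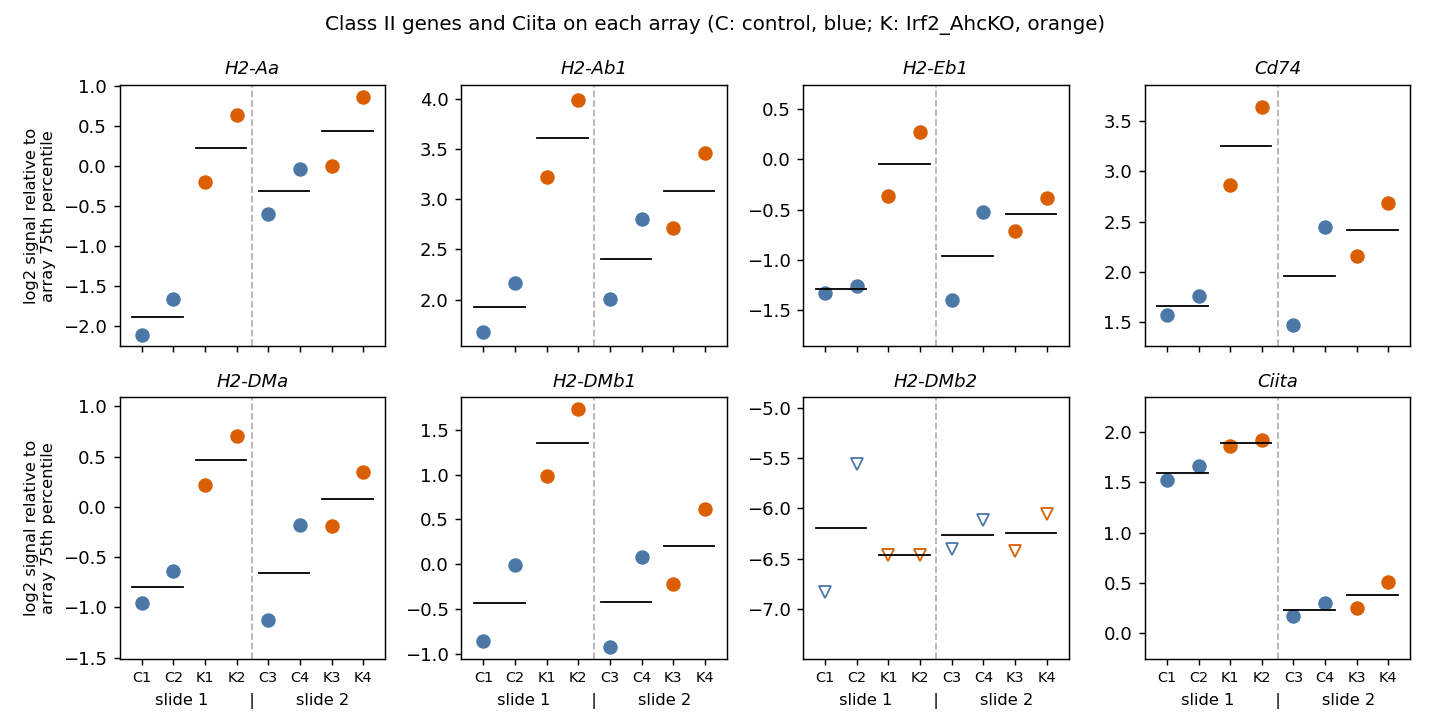
Log2 signal of the 8 genes on each array relative to its 75th percentile, with control arrays (C1 to C4) in blue, Irf2_AhcKO arrays (K1 to K4) in orange, the mean of each group on each slide as a black line, and open triangles where a probe was not well above background. C1 and C2 lie below K1 and K2 in all 7 measured genes, C4 lies above K3 in 6 of them, and each panel has its own vertical scale.

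Across the list, 7 of 7 genes had a positive difference on both slides, as did 30.5% of all features. The median of the 7 differences was 1.03, and that of all features -0.0024. An unadjusted limma p below 0.05 with higher signal was reached by 7 of 7, against 5.98% of all features. The groups did not overlap in 0 of 7, against 1.74% of features with all Irf2_AhcKO arrays above all control arrays. With slide means removed, the genes moved closely together across arrays, so the 7 are not separate observations. Limma adjusted p-values ran from 0.281 to 0.423.

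Single arrays set where the groups overlapped. The mean of the 7 genes was -0.07, 0.29, -0.06 and 0.70 on control arrays 1 to 4 and 1.23, 1.84, 0.57 and 1.15 on Irf2_AhcKO arrays 1 to 4. Irf2_AhcKO array 2 was the highest array for 6 genes and Irf2_AhcKO array 4 for H2-Aa. The lowest was control array 3 for 5 genes and control array 1 for H2-Aa and H2-Ab1. Irf2_AhcKO array 2 lay above all controls in 7 of 7 genes, arrays 1 and 4 in 6 each, and array 3 in 1.

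Arrays of the same group and slide also differed in step. Control array 2 was above control array 1 in 7 of 7 genes (median log2 difference 0.32), and Irf2_AhcKO array 2 above array 1 in 7 of 7 (0.75). On slide 2, control array 4 was above array 3 in 7 of 7 (0.88) and Irf2_AhcKO array 4 above array 3 in 7 of 7 (0.54). Both arrays numbered 4 carry the Xist signal given above, and control array 4 the Sis signal. Their part in these differences was not tested.

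The difference between groups was larger on slide 1 for every measured gene. On slide 1 the list median was 1.59 and on slide 2 it was 0.62. H2-Aa differed by 2.10 and 0.75 on slides 1 and 2, H2-Ab1 by 1.68 and 0.68, and H2-Eb1 by 1.25 and 0.41. For Cd74 the values were 1.59 and 0.46, for H2-DMa 1.26 and 0.73, for H2-DMb1 1.79 and 0.62, and for Ciita 0.30 and 0.14. On slide 1 both Irf2_AhcKO arrays were above both controls in 7 of 7 genes, an order that 22.5% of all features showed. On slide 2 that held for 1 of 7, H2-Aa, against 16.3% of features, since control array 4 exceeded Irf2_AhcKO array 3 in the other 6.

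Whether the 2 slides differ in this contrast was tested as an interaction of group and slide. No gene of the 7 passed, nor did any feature (0%), with limma's adjusted p = 0.999 for all 7. Unadjusted p-values ran from 0.056 (H2-Aa) to 0.448 (Ciita), and 1091 features had an unadjusted limma p below 0.05. The interaction for H2-Aa was a log2 value of 1.36 (SE 0.58) from 2 arrays per group and slide.

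**Figure D2:**
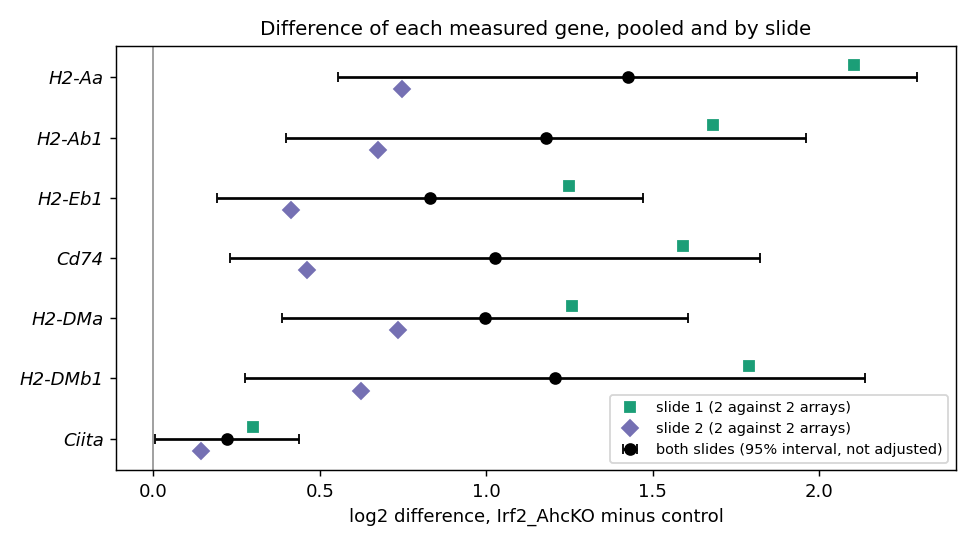
Log2 difference of each measured gene, Irf2_AhcKO minus control, over both slides (black point with its 95% interval before adjustment, 4 arrays against 4) and on slide 1 (green square) and slide 2 (purple diamond), each 2 arrays against 2. The slide 1 value exceeds the slide 2 value in all 7 genes, from 2.10 against 0.75 for H2-Aa to 0.30 against 0.14 for Ciita.

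Between slides, Ciita was the gene of the 7 that differed past the threshold. With the group held, Ciita was lower on slide 2 by a log2 difference of -1.44 (SE 0.09, limma's adjusted p = 0.000158), and 35.5% of all features passed in that comparison. None of the other 6 passed, and the smallest adjusted p was that of H2-Aa, higher on slide 2 by 0.89 (SE 0.37, limma's adjusted p = 0.103). Slide, scan and replicate numbers coincide in these arrays.

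Co-variation of Ciita with the other genes was unlike with and without the slide means. Over the 8 arrays as measured, Ciita and the mean of the 6 other genes had a Pearson r of 0.21 and a Spearman rho of 0.48. Without the 2 arrays farthest from the Ciita median, Irf2_AhcKO arrays 1 and 2, r was -0.53 and rho -0.09 (n = 6). After the slide means were removed, r was 0.95 and rho 0.98 over the 8 arrays. These are descriptions of arrays that share groups and slides, and no p is attached.

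**Figure D3:**
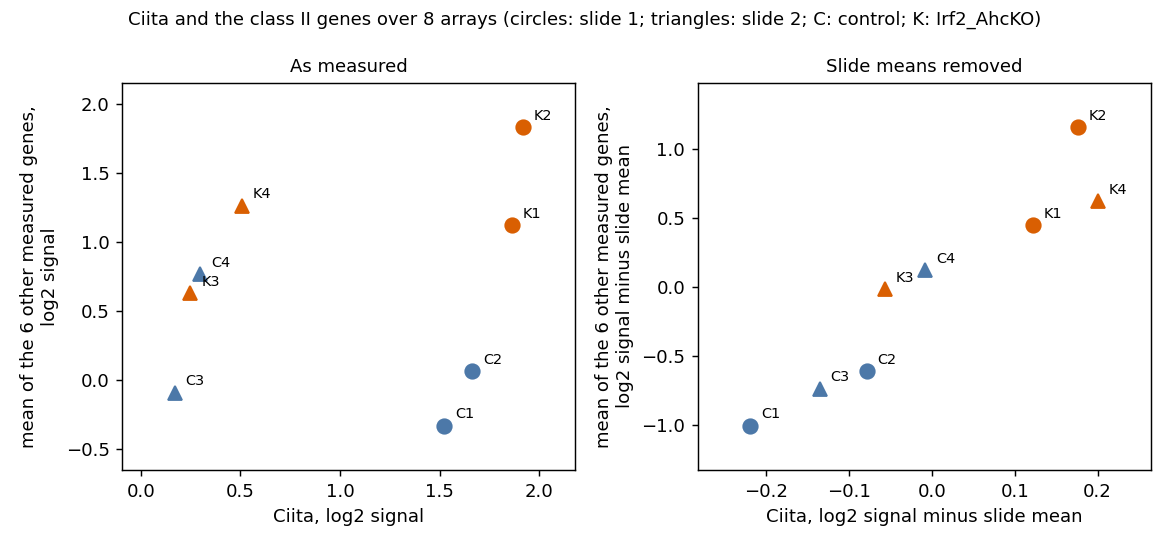
Ciita log2 signal (horizontal) against the mean log2 signal of the 6 other measured genes (vertical) on 8 arrays, as measured (left, r = 0.21) and after subtraction of each slide's mean (right, r = 0.95). Circles are slide 1, triangles slide 2, blue control and orange Irf2_AhcKO, and the left panel shows the 2 slides as separate groups along the Ciita axis.

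Pairs among the 7 genes, Ciita among them, were described in the same way. As measured over 8 arrays, r of pairs with Ciita ran from -0.29 (H2-Aa) to 0.51 (H2-DMb1). The other pairs ran from 0.66 to 0.99 (H2-Eb1 with Cd74). Over all 21 pairs the median was 0.88, and 20 were positive. With slide means removed the range was 0.89 to 1.00 and the median 0.97. With both slide and group means removed it was 0.65 to 0.99 and the median 0.91. Each slide and group holds 2 arrays, so these last r rest on the difference between those 2, not on 8 separate values. In each such difference the array of higher number was above in 7 of 7 genes, which by itself makes every r positive. These correlations share arrays, RNA preparations and amplification.

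Named features most like the mean of the 7 genes were ranked by Pearson r over 8 arrays with slide means removed. The 8 nearest were Casp4 (r = 0.992), Cd22 (0.991), Rorb (0.989), Psmb9 (0.986), Cyp2b23 (0.986), Cdc20b (0.983), Rnf165 (0.982) and Zbp1 (0.982). Among all 25398 features, the 99th percentile of r was 0.944. Sizes of the differences varied among the 8. Casp4, an inflammatory caspase, had a log2 difference of 0.66 (SE 0.16) and Psmb9, an immunoproteasome subunit encoded beside the DM genes, one of 1.00 (SE 0.23). Those of the other 6 were 0.22 to 0.30. With the mean of a gene's kept probes in place of the brightest, Zbp1 was at 0.88 and Rorb at 0.10, and with normexp Cdc20b was at 0.14. Casp4 and Psmb9 had groups that did not overlap, with Irf2_AhcKO higher, as in 1.74% of all features. For Psmb9 the margin was narrow, with control array 4 at 3.95 and Irf2_AhcKO array 3 at 3.97. The 8 were ranked by likeness to a mean that itself differed between groups. None of the 8 passed over all features (limma adjusted p from 0.23 to 0.401).

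The class II genes other than Cd74 (chromosome 18) and Ciita (chromosome 16) lie in the MHC on chromosome 17, among genes of class I peptide loading. Of 14 listed neighbours, 13 were measured, 10 had a positive difference, and the median was 0.23. Of the 13, 1 passed, against 0.0984% of all features. This was Tapbp, the tapasin that loads peptides onto class I, with higher signal in Irf2_AhcKO. It read 1.56, 1.90, 1.87 and 1.78 on control arrays and 2.76, 3.04, 2.71 and 2.71 on Irf2_AhcKO arrays. The groups did not overlap, as in 1.74% of all features with Irf2_AhcKO higher. The log2 difference was 1.03 (SE 0.12, limma's adjusted p = 0.0482), 1.17 on slide 1 and 0.89 on slide 2. This call was lost with the replicate number as a block (adjusted p = 0.12), quantile normalization (0.0536), no filter (0.126), the mean of kept probes (0.0512), no slide term (0.0508), either slide alone (0.378 and 0.59) and any single array left out (0.0764 to 0.178).

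Between the DM and I-A genes, the immunoproteasome subunit gene Psmb8 had a log2 difference of 1.76 (SE 0.34, limma's adjusted p = 0.163). Its groups did not overlap, as in 1.74% of all features with Irf2_AhcKO higher, and with normexp it passed (limma's adjusted p = 0.0408). For Psmb9 the log2 difference was 1.00 (adjusted p = 0.23). For the peptide transporter gene Tap1 it was 0.74 (SE 0.27, adjusted p = 0.38), or 0.22 with normexp and 0.48 without Irf2_AhcKO array 2. Values were not uniform along this stretch. Tap2, next to Psmb8, had a difference of -0.33 (SE 0.30), H2-K1, a class I heavy chain, one of -0.14 (SE 0.08), and Brd2, beside H2-DMa, one of 0.14 (SE 0.09). Beyond H2-Eb1, the values were 0.56 for H2-Eb2, 0.15 for Btnl2, 0.05 for Btnl1 and -0.26 for Notch4. Tap2, H2-K1, Brd2, Btnl2, Btnl1 and Notch4 were named for their place in this order, after their values were seen.

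**Figure D4:**
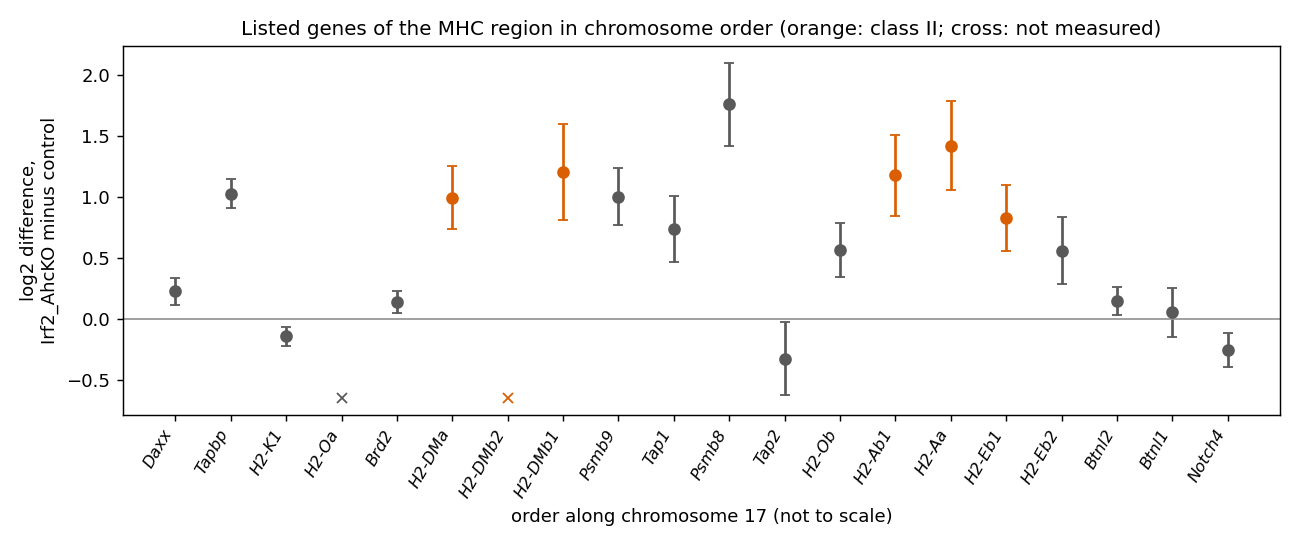
Log2 difference, Irf2_AhcKO minus control (point, with its standard error), of listed MHC region genes in their order along chromosome 17, not to scale. Class II genes are orange, other genes grey, and H2-Oa and H2-DMb2 (crosses) were not measured. The measured genes from H2-DMa to Psmb8 and from H2-Ab1 to H2-Eb1 lie between 0.74 (Tap1, 0.22 with normexp) and 1.76, while Tap2 between them is at -0.33.

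Upstream of class II, the list from the interferon gamma receptor to Ciita had 12 of 12 genes measured, 9 positive and a median of 0.22. None passed the threshold, and 3 had an unadjusted limma p below 0.05 with higher signal, against 5.98% of all features. Irf8, a transcription factor of the interferon regulatory family, had a log2 difference of 0.60 (SE 0.13, limma's adjusted p = 0.202). For Jak2, a kinase of the interferon gamma receptor, it was 0.28 (SE 0.11, adjusted p = 0.392).

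The enhanceosome list, the DNA-bound proteins on which Ciita docks, had 8 of 8 genes measured, 4 positive and a median of -0.04, and none passed. Rfxap, a subunit of RFX, was at -0.53 (SE 0.22, limma's adjusted p = 0.424), or -0.16 with normexp and -0.30 without Irf2_AhcKO array 2. Nfya was at -0.26 (SE 0.20), Creb1 at -0.13 (SE 0.10) and Nfyc at 0.09 (SE 0.12), and Nfya and Nfyc had the opposite sign on slide 2 (0.12 and -0.0052).

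Downstream of synthesis, the list of lysosomal proteins that degrade antigen and the invariant chain had 9 of 10 genes measured and 1 positive, with a median of -0.14. None passed, and 3 had an unadjusted limma p below 0.05 with lower signal, against 5.74% of all features. Ctss, the cathepsin that trims the invariant chain, read 2.85, 2.97, 2.72 and 2.70 on control arrays and 2.36, 2.52, 2.24 and 2.20 on Irf2_AhcKO arrays. All Irf2_AhcKO arrays were below all controls, as in 2 of the 9 genes and 2.11% of all features. The other gene was Ctsd, where control array 4 at 2.29 and Irf2_AhcKO array 3 at 2.28 were almost level. For Ctss the log2 difference was -0.48 (SE 0.07, limma's adjusted p = 0.11), and with normexp it passed (adjusted p = 0.0163). Ctsl, another cathepsin, was at -0.52 (SE 0.18, adjusted p = 0.363), Ifi30, which reduces disulfide bonds of antigen, at -0.42 (SE 0.12, adjusted p = 0.303) and Ctsd at -0.17 (SE 0.08, adjusted p = 0.438).

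Of 8 turnover and accessory class II genes, 7 were measured, 3 were positive and the median was -0.04. None passed, and 1 had an unadjusted limma p below 0.05 with higher signal, against 5.98% of all features. H2-Ob, the β chain of the DM inhibitor H2-O, had a difference of 0.57 (SE 0.22, limma's adjusted p = 0.405), and H2-Eb2, a second I-E β chain gene, of 0.56 (SE 0.27, adjusted p = 0.464). With normexp they were 0.15 and 0.24, and without control array 1 H2-Eb2 was at 0.27. Of the tetraspanins, Cd82 was at -0.16 (SE 0.09) and Cd9 at 0.10 (SE 0.11).

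Costimulation, which T cells need beside class II, had 6 of 9 genes measured, of which Cd274 passed the brightness filter only through the Irf2_AhcKO arrays. The other 5 were all positive, with a median of 0.28, and none passed the threshold. Of these 5, 1 had an unadjusted limma p below 0.05 with higher signal, against 5.98% of all features. Cd274, the gene of the T cell-inhibiting ligand PD-L1, read -5.84 to -4.62 on control arrays, none of which put it well above background, and -3.49 to -1.98 on the 4 Irf2_AhcKO arrays, which all did. It was at least 3.53-fold higher there, the floor on each control array being its own signal or the dimmest well-above-background probe, whichever was brighter. This bound is for the processed signal, and with normexp the log2 difference was 0.60. Being kept through the group where it is high, it is given as a description with no test. Tnfrsf14, a receptor of the tumour necrosis factor family, had a log2 difference of 0.38 (SE 0.13, limma's adjusted p = 0.358), and Cd80, a ligand of CD28, of 0.21 (SE 0.13, adjusted p = 0.525). Cd83, a surface protein of activated antigen-presenting cells, was at 0.86 (SE 0.44, adjusted p = 0.475), or 0.28 with normexp, 0.48 without control array 2 and 1.33 without control array 1.

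**Figure D5:**
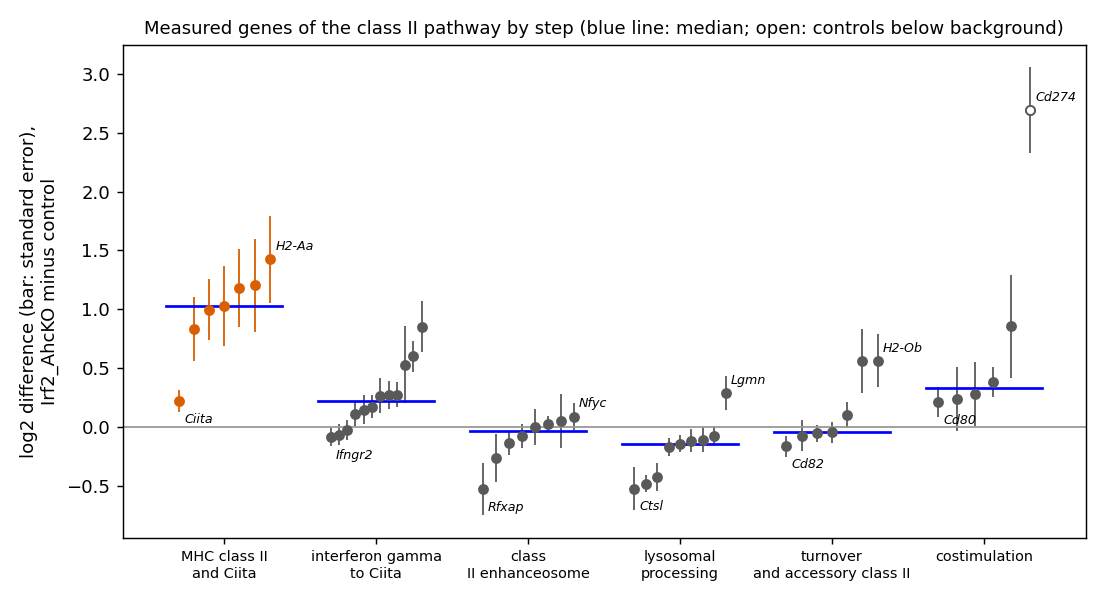
Log2 difference, Irf2_AhcKO minus control, of each measured gene (point, with its standard error) grouped by step of the class II pathway, with the list median as a blue line and an open point where no control array was well above background. The class II genes (orange) have a median of 1.03, against 0.22 for the list from interferon gamma to Ciita, -0.04 for the enhanceosome and -0.14 for lysosomal processing.

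Markers of the labelled cells, of differentiated epithelium and of class II-bearing immune cells were read on the same arrays, as sums of linear signal over each list. All 5 stem cell markers with a probe, Lgr5, Ascl2, Smoc2, Axin2 and Slc12a2, were well above background on all 8 arrays. They summed to 83.4 to 95.1 in controls and 81.0 to 88.2 in Irf2_AhcKO, and all 6 epithelial markers to 128 to 180 and 128 to 156. Most of the stem cell sum was Slc12a2, with a log2 difference of -0.01 (SE 0.07). Of the 5 stem cell markers 0 had a positive difference, against 49.5% of all features, and the median was -0.15. Ascl2 was at -0.46 (SE 0.20) and Lgr5 at -0.29 (SE 0.16), and none of the 5 passed. On slide 1 both lists had both Irf2_AhcKO arrays below both controls.

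Enterocyte markers moved with the groups. All 7 were well above background on all 8 arrays and summed to 111, 108, 92.0 and 1475 on control arrays and 83.4, 76.9, 67.7 and 66.4 on Irf2_AhcKO arrays, without overlap. The 1475 of control array 4 was mostly Sis, and the sums of the other arrays were mostly Fabp2. The lack of overlap of the sums is therefore largely that of these genes and not of the whole list. Of the 7, 1 had a positive difference and the median was -0.77. An unadjusted limma p below 0.05 with lower signal was reached by 5, against 5.74% of all features, and none passed over all features. In Fabp2, Alpi and Fabp1 all Irf2_AhcKO arrays were below all controls, against 2.11% of all features.

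Of 7 dendritic cell markers, Cd209a, Clec9a and Itgax were not well above background on any array, and the list summed to 0.206 to 0.454 in controls and 0.241 to 0.408 in Irf2_AhcKO. The 8 macrophage markers, of which 2, Cx3cr1 among them, were above background on no array, gave 20.9, 23.1, 29.8 and 30.8 on control arrays and 26.5, 25.2, 30.6 and 31.0 on Irf2_AhcKO arrays, mostly from Csf1r. The 7 B cell markers summed to 6.15, 6.43, 4.76 and 5.22 on control arrays and 6.88, 7.20, 5.38 and 6.10 on Irf2_AhcKO arrays. The T cell list, with 5 of 6 markers on the array and Cd3g above background on none, gave 4.73, 5.94, 4.22 and 4.98 on control arrays and 6.52, 6.84, 4.72 and 5.21 on Irf2_AhcKO arrays.

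On slide 1 both Irf2_AhcKO arrays were above both controls in the macrophage, B cell and T cell sums, as in the 7 measured genes. The dendritic cell, group 3 innate lymphoid and pan-leukocyte sums had the reverse order there, with both Irf2_AhcKO arrays below both controls. For dendritic cell markers the slide 1 sums were 0.419 and 0.454 in controls and 0.349 and 0.408 in Irf2_AhcKO. On slide 2 control array 4 was above Irf2_AhcKO array 3 in the macrophage and T cell sums, as in 6 of the 7 genes. In the B cell, dendritic cell, group 3 innate lymphoid and pan-leukocyte sums control array 4 was below Irf2_AhcKO array 3. The macrophage, B cell and T cell sums largely follow 1 transcript each. These were Csf1r (log2 difference 0.14, SE 0.08), Cr2 (0.17, SE 0.08) and Cd4 (0.20, SE 0.11). Of the markers that passed the brightness filter, 3 of 6 macrophage, 5 of 6 B cell and 3 of 3 T cell ones had a positive difference, against 49.5% of all features. The B cell marker Ms4a1 was above background on no array. Cd79b read -5.25 to -3.46 on control arrays, of which 2 put it well above background, and -3.00 to -2.73 on Irf2_AhcKO arrays. Group 3 innate lymphoid markers (5, with Il23r, Il1r1 and Il7r on no array) summed to 0.796 to 2.90 in controls and 0.745 to 1.11 in Irf2_AhcKO. The 7 pan-leukocyte markers summed to 0.532 to 0.977 and 0.628 to 0.739, with Coro1a, Laptm5 and Cd53 on no array. The part of enterocytes and of immune cells in the class II values was not tested.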

How the data were processed

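RNA of 4 control and 4 Irf2_AhcKO samples was measured on 8 Agilent 1-colour arrays. Per the labels' protocols, it was column-purified, amplified from little input and labelled with Cy3, and such amplification can distort single transcripts. Per the file headers, the deposited intensity of each spot is background-subtracted and detrended by Feature Extraction 11.5.1.1, on a grid annotated on mm9. The authors' series table holds the same intensity times 1 constant per array (6.41 to 6.90, column medians 207 to 246), linear and uncentred. The sources used here do not state how that constant was set.

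Probes were named through accessions and a RefSeq table (28331 of 55681 probes, 21368 symbols, none with several). Unnamed probes kept their identifier. The log2 intensity minus each array's 75th percentile over non-control spots was fitted with limma 3.58.1 (R 4.3.3, lmFit and eBayes, slide as a term), for features well above background on at least 4 of 8 arrays. Outlier spots (141 to 214 per array) were left out, and each gene took its kept probe of highest mean. The script was tested on simulated data.

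The genes and lists were chosen with earlier results of these data known. Named are the 8 genes, Irf2, of each list the called genes and otherwise up to 4 with the smallest unadjusted p, and the 8 features most like the genes' mean. Xist, Ddx3y, Sis, single marker genes with values and the further region genes were named after their values were seen. Single values of some list members are not reported here, while the list counts include them. The design text speaks both of 4 mice and of 2 biological replicates, so p-values measure only the spread between these samples, which may be partly technical.

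Same-numbered arrays deviated together (r across features 0.46, 0.49, 0.52 and 0.53), which met the rule applied for pairs (every r above 0.1). Such arrays also share a slide, and arrays of unlike number on a slide were not compared. This r therefore cannot tell pairing from the slide. With slide means removed r was 0.05 and 0.21. Alternatives were normexp (offset 50, on the median signal, as the files used hold no mean signal), quantile normalization, the series table, other filters and probe rules, no slide term, each slide alone, the replicate block and leaving out each array. The number of arrays limits the precision.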

Additional observations from a re-analysis of the deposited data

Results flagged for a closer look

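H2-Eb1, the I-E β chain gene, had a control replicate 4 value of -0.52 (log2 relative to the 75th percentile), far above the other 3 controls at -1.40 to -1.26. Its gap to the nearest control was 0.839 of the group's range, above Dixon's 95% critical value for 4 samples. H2-DMb2 had an Irf2_AhcKO replicate 4 value of -6.06 (gap 0.892 of the range), but its probe was not well above background on any array. Of 18 groups of 4 checked, 2 stood out in this way, and chance marks about 1 in 20.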

How the results depend on the processing

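Each of the 7 measured genes had a positive difference in 18 of 18 alternatives and passed in none. The smallest limma adjusted p was 0.0959 (H2-Aa, normexp). The series table, the other filters, no slide term and the replicate block leave these differences unchanged by construction (H2-Aa at 1.42 in each). The mean of kept probes changes only H2-Ab1. The sign in those alternatives is therefore no separate evidence. The median over the genes was 1.03, 1.59 on slide 1 alone, 0.62 on slide 2 alone, and 0.846 to 1.33 on leaving out 1 array. The count of features called, 25, was 133 with normexp, 7 with no filter, 46 with features well above background on all 8 arrays, and 0 with slide 1 alone, slide 2 alone (2538 and 1338 with an unadjusted limma p below 0.05) or the replicate block. With that block 3293 had an unadjusted p below 0.05, the adjusted p of the 7 genes ran from 0.195 to 0.37, and Tapbp lost its call (0.12) while no call of the 7 changed. Leaving out 1 array gave 0 to 25 calls: 0 without control replicate 2 (2483 with an unadjusted limma p below 0.05), Irf2_AhcKO replicate 1 (2418) or 2 (2248), 1 and 3 without Irf2_AhcKO replicate 3 or 4, 11 and 6 without control replicate 1 or 3, and 25 without control replicate 4. Calls among the 53 measured pathway genes, 1, were 4 with normexp and 0 with quantile normalization. On slide 2 alone Nfya (0.12) and Nfyc (-0.0052) had the opposite sign. Among pathway genes that did not pass, leaving out 1 array also moved Nfya (-0.46 to -0.13), Creb1 (-0.21 to -0.07), Nfyc (0.02 to 0.18), Jak2 (0.18 to 0.34), Irf2 (0.17 to 0.35), Cd9 (0.03 to 0.17) and Cd80 (0.14 to 0.32) by over 1.5 times, normexp Creb1 (-0.08) and Nfyc (0.04), and the mean of kept probes Cd82 (-0.09). The cause of these shifts was not tested. Signal over background leaves H2-DMb2 unmeasured.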
